A study of Mus musculus with 6 samples.

Results

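A set of 8 transcription factors of stem-like and memory T cells were followed in CD8 T cells sorted from tumours by a reporter of the T-box factor Eomes. They were Lef1, Myb, Foxo1, Satb1, Klf3, Bach2, Bcl6 and Id3, chosen with earlier results of these data known. Every probe set of the array annotated to 1 of these 8 genes was taken, whatever its values. That gave 27 of 45037 probe sets, for 8 of the 18193 genes named on the array. Of these, 24 lay above the level of dim probe sets and were tested with the 27766 probe sets that did so. The cells came from implanted MCA-205 fibrosarcomas in male C57BL/6 mice whose Eomes-expressing cells carry GFP. Antibodies to the costimulatory receptor OX40 (250 ug, days 12 and 16) and to the inhibitory receptor CTLA-4 (200 ug, days 12, 14 and 16) had been given to every mouse, and tumours were taken on day 19 after implantation. Both groups therefore share the reporter, the tumour and the treatment, and untreated mice were not analysed here. GFP-positive cells (Eomes+, 3 arrays) were set against GFP-negative cells (Eomes-, 3 arrays), which asks how the factors differ between CD8 T cells with and without Eomes in the same treated tumours. The reporter's allele and the number of animals behind an array are not given in the sources used here.

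CD8 T cells that keep the ability to self-renew, among them naive, memory and stem-like tumour-infiltrating cells, hold a network of factors that effector differentiation turns down. Lef1, Myb and Foxo1 bind DNA mainly as activators of this programme, and Satb1 organises chromatin in thymocytes and T cells. Klf3, Bach2 and Bcl6 are repressors, and Id3 blocks the DNA binding of E proteins. Blimp-1, encoded by Prdm1, together with Id2 and Irf4 is associated with the effector side. Eomes has known roles in both memory and exhausted CD8 T cells.

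The sort was visible in Eomes itself. Its brighter probe set, 1435172_at, read 10.38, 9.86 and 8.38 log2 units for Eomes+ replicate numbers 1, 2 and 3, against 6.85, 6.89 and 5.42 for the same numbers of Eomes- (8.90-fold; limma unadjusted p = 0.00175). Values are log2 signals throughout, in which a difference of 1 is a change of 2-fold, and they are compared only within a probe set. The median signal was 6.35 to 6.42 on every array. The labelled cell type showed in Cd8a, at 11.95 to 13.55, and Cd3e, at 11.78 to 12.93. RNA of other cells was present too, and differed more between replicate numbers than between fractions. Over 14 genes of tumour cells and fibroblasts the mean was 9.73, 11.43 and 12.21 in Eomes+ and 9.59, 10.67 and 12.34 in Eomes-, and over 14 macrophage genes it was 8.40, 9.91 and 10.74 against 8.09, 9.19 and 10.71. The mean of 12 T cell identity genes was 12.07, 11.87 and 10.83 against 12.21, 12.21 and 10.94, so both arrays of number 3 held the least T cell signal and the most tumour signal. Thy1 stood in both the T cell list and the tumour and fibroblast list. Of 12 B and plasma cell genes 6 lay below the filter, among them Ms4a1. The mean of the 5 tested was 6.64, 6.45 and 6.92 in Eomes+ against 5.86, 6.51 and 6.80 in Eomes-, with 4 of 5 higher in Eomes+. Cd79a read 5.80 to 6.34 beside a 40th percentile of 5.70 to 5.72, and Cd79b 5.85 to 7.36. Ebf1, the brightest, read 6.83, 6.90 and 9.15 against 6.38, 7.62 and 8.84, and Cd22 8.19, 6.72 and 6.25 against 5.28, 6.49 and 6.75, so that Cd22 stood highest on Eomes+ array 1. Of 9 genes of CD4 and regulatory T cells, all tested, 7 had a lower mean in Eomes+. The 3' to 5' log2 ratio of Gapdh, a sign of RNA length, was 1.74 ± 0.17 (SD, n = 3) in Eomes+ and 1.24 ± 0.26 in Eomes- (p = 0.1 in a two-sided exact permutation test, which 3 against 3 arrays cannot go below). That of Actb differed less, at 0.13 ± 0.04 in Eomes+ and 0.05 ± 0.06 in Eomes- (p = 0.2 in the same exact permutation test). What part these differences have in the values below was not tested. In such bulk samples, fewer cells of a type and less RNA per cell cannot be told apart.

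Most of the factors read higher in the Eomes+ cells, and Lef1 and Satb1 did so most, but no probe set of any gene passed the test over the whole array. The mean difference was in favour of Eomes+ for 22 of 24 tested probe sets, with a median of 0.76 log2, while 46.6% of all tested probe sets had a higher mean in Eomes+ and their median difference was -0.023. With Benjamini-Hochberg adjustment in limma, 0 of 24 factor probe sets and 0% of all 27766 passed an adjusted p of 0.05, and every adjusted p was 1.00. Without adjustment, 4 of 24 had p under 0.05 with the higher mean in Eomes+, beside 1.11% of all tested probe sets. These were both probe sets of Lef1, 1 of 5 of Satb1 and 1 of 5 tested of Klf3, and in the same 4 the lowest Eomes+ array exceeded the highest Eomes- array, beside 2.92% of all. The Klf3 probe set, 1441200_at, passed the filter through its Eomes+ arrays, with 2 of 3 Eomes- arrays under the filter level. The filter thus favoured a difference in this direction, and the probe set is no support for the count. With the filter met on 2 arrays of each group, a choice made after seeing the data, 3 of 22 probe sets remained in both counts, all of Lef1 and Satb1, beside 0.919% and 2.8% of 25896. Under that filter 20 of 22 had the higher mean in Eomes+, with a median of 0.71 log2, beside 46.3% of all. None of the 24 had an unadjusted p under 0.05 with the lower mean in Eomes+ (2.27% of all) or lay wholly below (5.14% of all). Over all probe sets 936 (3.37%) had an unadjusted p under 0.05 in either direction, below the 5% that chance would give. That share holds for this fit, which has no term for the replicate number. Results with such a term are given at the end. The count of 4 rested on single arrays. It was 2 without Eomes+ array 1 (beside 1.42% of all), 2 without Eomes+ array 2 (0.9%) and 10 without Eomes+ array 3 (1.66%). Without Eomes- arrays 1, 2 and 3 it was 4 (0.904%), 3 (0.767%) and 7 (2.1%). Klf3 1441200_at, no support for a count, was in both counts of 2 and in that without Eomes- array 1. The other probe set in each count of 2 was of Satb1. Klf3 was also among the 7. The p-values measure only the spread between these arrays, whose number limits the precision of every value here.

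The size of the differences and their spread over the replicate numbers tell the factors apart. A mean at least 2-fold higher in Eomes+ was found for 8 of 24 probe sets, 2 of Lef1, 5 of Satb1 and 1 of Klf3, beside 1.03% of all tested. The Klf3 probe set was 1454666_at, which also passed the filter through its Eomes+ arrays and whose fold is taken against background signal. With the filter met on 2 arrays of each group the count was 7 of 22, beside 0.711%. When each Eomes+ array was set against the Eomes- array of its own number, 13 of 24 probe sets were higher at all 3 numbers, beside 13.3% of all, and 0 were lower at all 3, beside 17.9% of all. The 13 belonged to Lef1, Id3, Satb1, Myb, Foxo1 and Klf3, the Klf3 members being again those 2 dim probe sets, whereas no probe set of Bach2 or Bcl6 kept 1 direction. With the filter met on 2 arrays of each group 11 of 22 were higher at all 3 numbers, beside 13% of all. The median difference over the factors was 1.12 log2 at number 1, 0.87 at number 2 and 0.32 at number 3. At these numbers 23, 19 and 17 of 24 probe sets were higher in Eomes+, beside 48.7%, 46.1% and 46.9% of all. Over all tested probe sets the medians were -0.012, -0.043 and -0.033. The labels speak of 3 independent experiments but do not say that a number marks one.

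**Figure D1:**
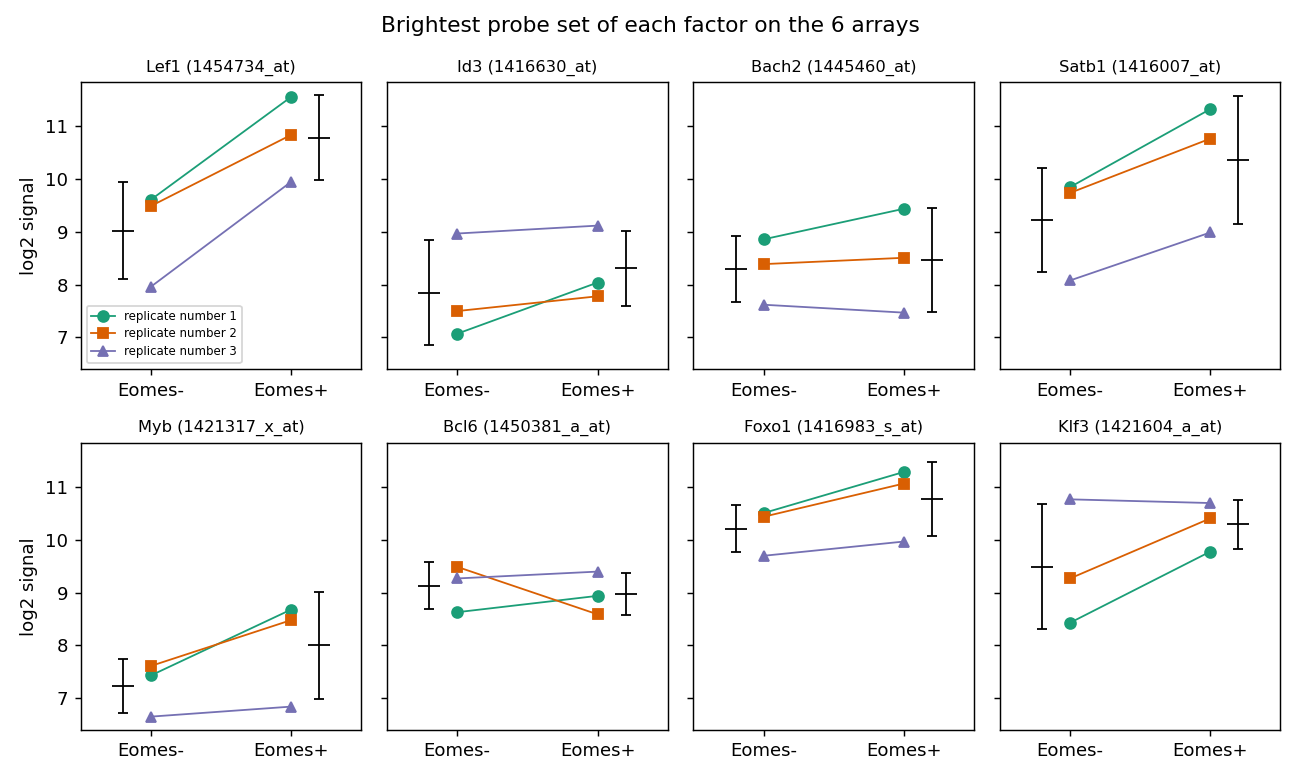
Log2 signal (vertical axis) of the brightest probe set of each of the 8 factors in Eomes- and Eomes+ cells, with 1 point an array, lines joining arrays of the same replicate number, and bars giving the mean ± SD (n = 3). Lef1 is the factor whose 3 Eomes+ points all lie above its 3 Eomes- points, and the number 3 arrays are lowest for Lef1, Satb1, Myb, Foxo1 and Bach2 but highest for Klf3 and Id3.

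**Figure D2:**
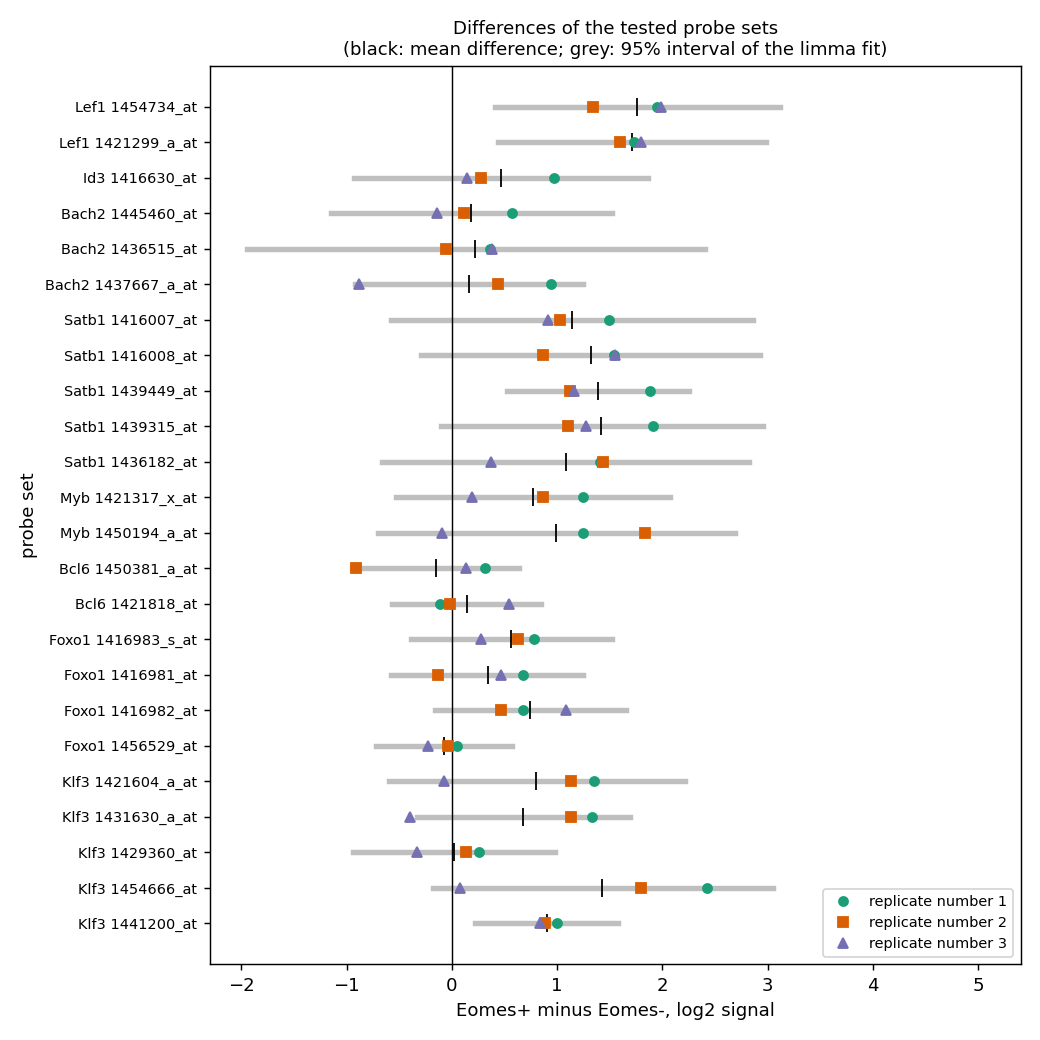
Eomes+ minus Eomes- log2 signal (horizontal axis) of the 24 tested probe sets, with 1 symbol for each replicate number, a black bar for the mean difference and a grey bar for the 95% interval of the limma fit. The symbols of Lef1 lie between 1.34 and 1.99 and those of Satb1 between 0.37 and 1.91, while those of Bach2 and Bcl6 fall on both sides of 0.

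Lef1, a high mobility group factor that binds DNA with the TCF family and can recruit beta-catenin or Groucho/TLE corepressors, had the largest differences of the 8. Probe set 1454734_at read 11.56, 10.84 and 9.95 in Eomes+ (numbers 1, 2 and 3) and 9.61, 9.49 and 7.96 in Eomes-. The lowest Eomes+ array thus stood above the highest Eomes- array, and number 3 was the lowest in both fractions. The means were 10.78 ± 0.81 and 9.02 ± 0.92 (SD, n = 3), a difference of 1.76 log2 (SE 0.57, 95% interval 0.41 to 3.12, 3.39-fold; limma unadjusted p = 0.0181), and 0.13% of tested probe sets had a larger one. Probe set 1421299_a_at, whose probes match several Lef1 transcripts, read 9.41, 9.16 and 8.03 against 7.68, 7.56 and 6.23. Its groups were separate as well, with a difference of 1.71 log2 (SE 0.53, 3.27-fold; limma unadjusted p = 0.0155). At the single numbers the gap was 1.95, 1.34 and 1.99 for the first probe set and 1.73, 1.60 and 1.80 for the second. It varied less than the level within a fraction. That level ran from 9.95 to 11.56 in Eomes+ and 7.96 to 9.61 in Eomes- for the first. For the second it ran from 8.03 to 9.41 and 6.23 to 7.68. Leaving out Eomes+ array 1 took the limma unadjusted p to 0.0607 and 0.053, and leaving out Eomes+ array 2 to 0.0534 and 0.0543.

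The promoters of the factors were searched for motifs of the families involved, as sequence background to the levels. RefSeq (GRCm38.p6) gave 16 windows of 250 bases before a transcription start for all 8 genes, among 32851 windows of 27025 genes. The searched letters, on either strand, were TCACACC for T-box factors such as Eomes (in 3.33% of all windows), TCAAAG for TCF/LEF (13.8%), GTAAACA for forkhead factors (3.17%) and CAGCTG for E proteins (13%). The last motif is its own reverse complement, and none of the 4 contains another. TCF/LEF letters stood in 1 window each of Lef1, Bach2 and Bcl6, E-box letters in 1 each of Lef1 and Satb1, T-box letters in that of Myb, and forkhead letters in 0 of 16. The Lef1 window shown, chosen because it holds TCF/LEF letters more than once, is chr3:131156044-131156293, plus strand, before the fourth of 4 listed starts. It is printed 5′ to 3′ with the matches in capitals, which begin 180 and 120 bases before the start.
Lef1, start 4: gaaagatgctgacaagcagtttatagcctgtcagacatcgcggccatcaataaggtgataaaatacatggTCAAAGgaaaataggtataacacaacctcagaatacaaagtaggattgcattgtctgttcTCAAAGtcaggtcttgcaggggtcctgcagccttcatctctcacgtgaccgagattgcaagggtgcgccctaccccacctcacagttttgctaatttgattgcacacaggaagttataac
A match is a description of the letters, and no binding was measured here.

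Satb1 binds AT-rich DNA at the base of chromatin loops and sets where remodelling enzymes act. By the median over its probe sets (1.32 log2) it came next to Lef1, and all of its 5 probe sets read higher in Eomes+ at each replicate number. Probe set 1416007_at, the brightest, read 11.33, 10.77 and 8.99 in Eomes+ and 9.85, 9.74 and 8.08 in Eomes-. The Eomes+ array of number 3 lay below 2 Eomes- arrays, so the groups overlapped, and the difference was 1.14 log2 (SE 0.72, 95% interval -0.58 to 2.86, 2.21-fold; limma unadjusted p = 0.159). In contrast, 1439449_at read 9.87, 9.84 and 8.99 against 7.99, 8.72 and 7.83, with no overlap. Its means were 9.56 ± 0.50 and 8.18 ± 0.48 (SD, n = 3), a difference of 1.39 log2 (SE 0.36, 95% interval 0.52 to 2.25, 2.61-fold; limma unadjusted p = 0.00719, the smallest of the 8 factors).

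The other Satb1 probe sets had differences of like size. Probe set 1416008_at read 11.46, 10.42 and 9.46 against 9.92, 9.55 and 7.90 (1.32 log2, SE 0.68). For 1439315_at the values were 10.37, 9.89 and 8.38 against 8.47, 8.79 and 7.11 (1.42 log2, SE 0.64), and for 1436182_at 8.97, 8.60 and 6.44 against 7.55, 7.16 and 6.07 (1.08 log2, SE 0.73). In these 3 the Eomes+ array of number 3 was again the only Eomes+ array below any Eomes- array. The gap at a single number went from 0.37 to 1.91 over the 5 probe sets, with medians of 1.54, 1.10 and 1.16 at numbers 1, 2 and 3. Of the 5 windows before listed Satb1 starts, the third carries E-box letters and is shown for that reason, at chr17:51826589-51826838, minus strand, with the match in capitals beginning 64 bases before the start.
Satb1, start 3: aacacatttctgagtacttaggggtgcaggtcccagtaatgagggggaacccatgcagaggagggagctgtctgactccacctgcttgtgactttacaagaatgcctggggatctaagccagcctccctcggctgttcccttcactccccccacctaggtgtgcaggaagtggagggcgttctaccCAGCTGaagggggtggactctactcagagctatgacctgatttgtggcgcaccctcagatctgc

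Myb, an activator that maintains haematopoietic progenitors and stem-like memory CD8 T cells, was higher in Eomes+ at numbers 1 and 2. Probe set 1421317_x_at, whose probes can also bind other transcripts, read 8.68, 8.48 and 6.84 in Eomes+ and 7.43, 7.61 and 6.65 in Eomes-. Eomes+ arrays 1 and 2 stood above every Eomes- array and Eomes+ array 3 stood within them, for a difference of 0.77 log2 (SE 0.55, 95% interval -0.53 to 2.07; limma unadjusted p = 0.204). Probe set 1450194_a_at read 7.51, 7.61 and 5.09 against 6.27, 5.78 and 5.18 (0.99 log2, SE 0.71), and number 3 of both fractions lay under its array's 40th percentile. The dim probe set 1422734_a_at was not tested. It read 6.47, 6.69 and 2.96 against 5.19, 4.49 and 3.36, above the filter level on 2 Eomes+ arrays and on 0 Eomes- arrays. At number 3 the gap was 0.19, -0.09 and -0.39 for the 3 probe sets. The single Myb window, chr10:21160985-21161234 on the minus strand, is shown because it opens with T-box letters on the reverse strand, 250 bases before the start, and its GC content of 81.2% compares with a median of 52.4% over all windows.
Myb, start 1: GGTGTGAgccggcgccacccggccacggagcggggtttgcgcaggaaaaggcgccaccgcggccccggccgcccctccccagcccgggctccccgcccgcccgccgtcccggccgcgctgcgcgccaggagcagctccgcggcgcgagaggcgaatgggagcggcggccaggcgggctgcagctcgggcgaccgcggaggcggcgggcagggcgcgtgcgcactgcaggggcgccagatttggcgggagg

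Foxo1 is a forkhead activator that AKT signalling keeps out of the nucleus, and it drives Il7r and Klf2 in resting T cells. Its differences were smaller than those of Lef1 and Satb1 and depended on the probe set. The brightest, 1416983_s_at, whose probes are shared between transcripts, read 11.29, 11.07 and 9.97 in Eomes+ and 10.51, 10.44 and 9.70 in Eomes- (0.56 log2, SE 0.40, 95% interval -0.39 to 1.52; limma unadjusted p = 0.203). Probe set 1416982_at read 9.44, 9.51 and 8.89 against 8.76, 9.04 and 7.80, with only Eomes- array 2 reaching into the Eomes+ range. It gave the largest Foxo1 difference, 0.74 log2 (SE 0.38, 95% interval -0.16 to 1.65; limma unadjusted p = 0.093), and was higher at each number, as the brightest was. For 1416981_at the values were 9.97, 9.37 and 8.94 against 9.29, 9.51 and 8.47 (0.34 log2, SE 0.38), lower in Eomes+ at number 2. The dimmest, 1456529_at, read 7.63, 7.44 and 7.03 against 7.58, 7.48 and 7.27, and its difference of -0.07 log2 (SE 0.27) had an interval that spans 0, like those of the other 3.

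Klf3 is a Kruppel-like repressor that recruits the CtBP corepressor. Its probe sets were higher in Eomes+ at numbers 1 and 2 but mostly not at number 3. Probe set 1421604_a_at read 9.78, 10.41 and 10.70 in Eomes+ and 8.43, 9.27 and 10.77 in Eomes-. Here, unlike in Lef1 and Satb1, number 3 was the highest array of each fraction, and the Eomes- array of number 3 stood above all Eomes+ arrays (0.80 log2, SE 0.59, 95% interval -0.60 to 2.21). Probe set 1431630_a_at read 9.57, 9.39 and 9.30 against 8.24, 8.27 and 9.71 (0.68 log2, SE 0.42), and 1429360_at read 8.15, 8.41 and 8.89 against 7.89, 8.28 and 9.21 (0.02 log2, SE 0.40). In both, the Eomes- array of number 3 was the highest of all 6. The tumour and fibroblast mean of that array was also the highest, and its part in the Klf3 values was not tested.

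The dimmer Klf3 probe sets passed the filter mainly through their Eomes+ arrays. Probe set 1454666_at read 7.15, 6.72 and 7.35 in Eomes+ and 4.73, 4.92 and 7.27 in Eomes-, where 2 of the 3 values lay under the filter level. The gap was 2.42, 1.80 and 0.08 at the 3 numbers. Probe set 1441200_at read 6.46, 5.96 and 6.57 against 5.47, 5.09 and 5.73, again with 2 Eomes- arrays under the filter level. The gap was 1.00, 0.88 and 0.84. Because both are set against Eomes- values at background, no fold or test is given for them. The remaining Klf3 probe sets, 1458487_at and 1442920_at, lay under the filter level on all 6 arrays, at 4.68 to 5.22 and 2.97 to 5.17, and were not tested.

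Bach2, a repressor that competes with AP-1 for its sites and restrains effector genes, differed little between the fractions. Probe set 1445460_at, the brightest, read 9.44, 8.51 and 7.47 in Eomes+ and 8.86, 8.39 and 7.62 in Eomes-. The fractions overlapped almost completely while the numbers spread over almost 2 log2 units, and the difference was 0.18 log2 (SE 0.56, 95% interval -1.15 to 1.52). Probe set 1436515_at read 8.28, 6.92 and 5.50 against 7.92, 6.99 and 5.12 (0.22 log2, SE 0.91), and 1437667_a_at read 6.65, 6.91 and 5.37 against 5.71, 6.47 and 6.26 (0.16 log2, SE 0.46). In each of the 3 the direction differed between numbers, and the intervals hold differences of over 2-fold either way for 1445460_at, so these arrays do not show that Bach2 is equal in the fractions.

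Bcl6, a zinc finger repressor and the counterpart of Blimp-1 in lymphocytes, also had no common direction. Probe set 1450381_a_at read 8.94, 8.59 and 9.40 in Eomes+ and 8.63, 9.49 and 9.27 in Eomes-. The highest of the 6 was Eomes- array 2 and the lowest was Eomes+ array 2, for a difference of -0.15 log2 (SE 0.33, 95% interval -0.95 to 0.64). Probe set 1421818_at read 8.15, 7.91 and 8.75 against 8.26, 7.93 and 8.22 (0.14 log2, SE 0.30, 95% interval -0.57 to 0.85). Both intervals leave room for either direction.

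Id3, which pairs with E proteins such as Tcf3 and Tcf12 and keeps them off DNA, marks memory precursors and stem-like cells. Its single probe set, 1416630_at, read 8.04, 7.78 and 9.12 in Eomes+ and 7.07, 7.50 and 8.97 in Eomes-. It was higher in Eomes+ at each number, by 0.97, 0.28 and 0.14, but the number 3 arrays of both fractions stood above all others, and the difference of 0.47 log2 (SE 0.58, 95% interval -0.93 to 1.86) was smaller than that spread. Those number 3 arrays also had the highest tumour and macrophage means; their part in the Id3 levels was not tested.

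**Figure D3:**
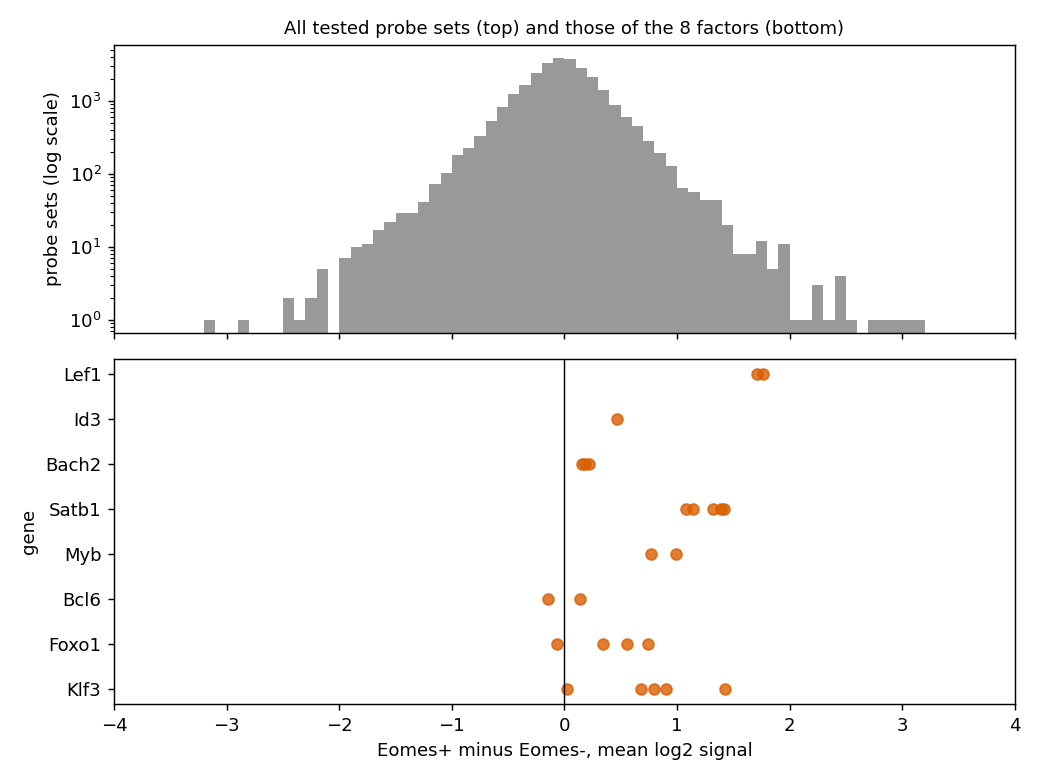
Top, number of tested probe sets (log axis) in each bin of Eomes+ minus Eomes- mean log2 signal (horizontal axis), for all 27766; bottom, the same difference for each tested probe set of the 8 factors. The points of Lef1 (1.71 and 1.76) and Satb1 (1.08 to 1.42) lie in the thin right edge of the distribution, and those of Bach2 (0.16 to 0.22) and Bcl6 (-0.15 and 0.14) near its centre.

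Lef1, Satb1, Foxo1 and Myb were also set against the T cell content of each array, by subtracting the mean of the 12 T cell identity genes. This was added after the data were seen, and 10 of those 12 genes had a lower mean in Eomes+, which by itself moves every relative difference upwards. Lef1 probe set 1454734_at then stood at -0.51, -1.03 and -0.88 in Eomes+ and -2.60, -2.71 and -2.97 in Eomes-. The spread within a fraction was 0.27 and 0.19 log2 (SD, n = 3) beside a difference of 1.96, and for 1421299_a_at it was 0.07 and 0.09 beside 1.91. Satb1 probe set 1416007_at stood at -0.73, -1.10 and -1.84 against -2.37, -2.46 and -2.86 (difference 1.34), with the fractions no longer overlapping. For Foxo1 probe set 1416983_s_at the values were -0.78, -0.80 and -0.86 against -1.70, -1.77 and -1.24 (difference 0.76), also without overlap. On this scale the lowest Eomes+ array exceeded the highest Eomes- array for 11 of 24 probe sets, beside 2.44% of all tested. They were 2 of 2 for Lef1, 5 of 5 for Satb1, 2 of 4 for Foxo1 and 2 of 2 tested for Myb, where the gap of 1450194_a_at was narrow (-5.74 against -5.76). Klf3, Bach2, Bcl6 and Id3 had 0. Klf3 probe set 1421604_a_at stood at -2.28, -1.46 and -0.13 against -3.78, -2.93 and -0.17, so number 3 remained far above the others in both fractions.

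**Figure D4:**
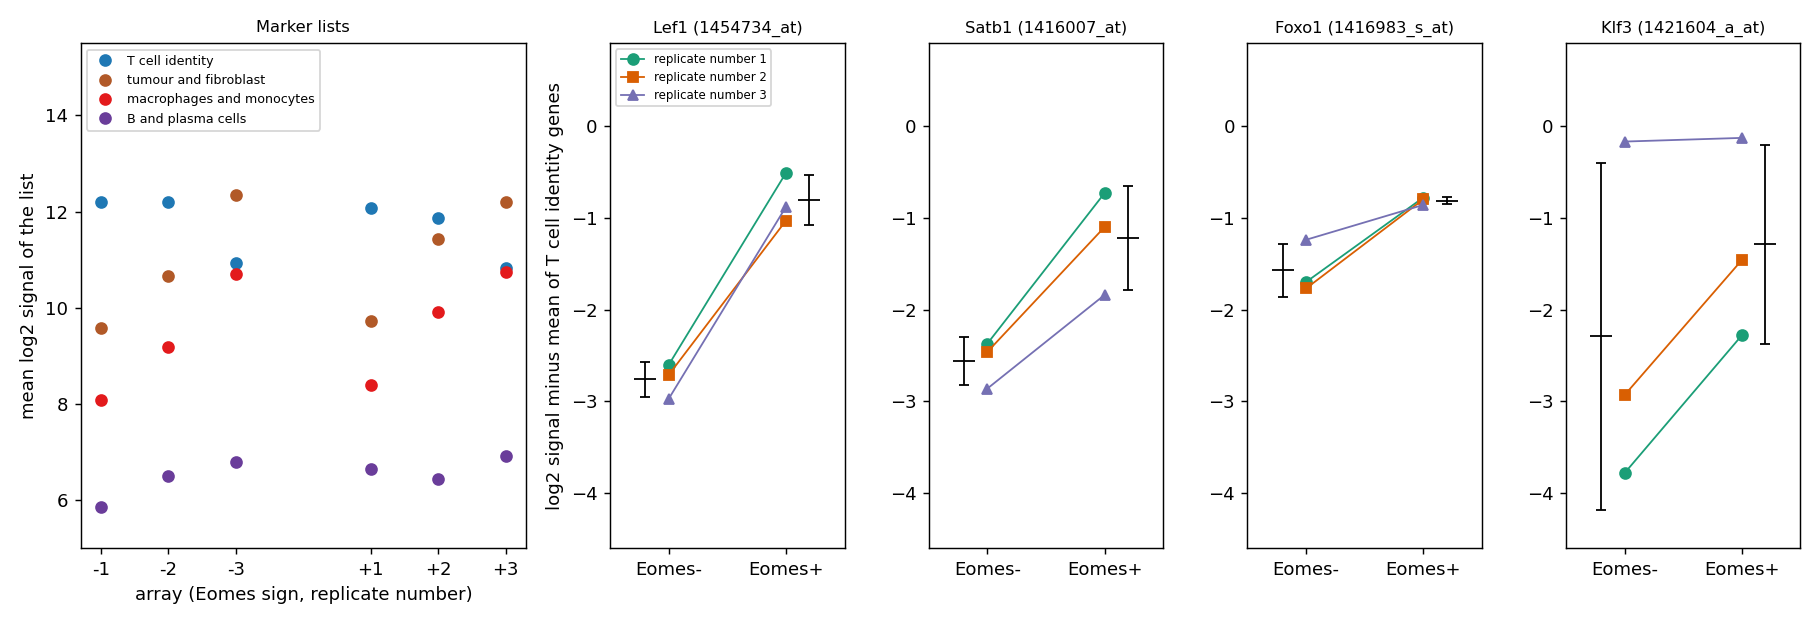
Left, mean log2 signal (vertical axis) of 4 marker gene lists on each of the 6 arrays; right, log2 signal of Lef1, Satb1, Foxo1 and Klf3 minus the mean of the T cell identity genes, with 1 point an array, lines joining arrays of 1 number, and bars giving the mean ± SD (n = 3). After this subtraction the Lef1 values lie between -1.03 and -0.51 in Eomes+ and between -2.97 and -2.60 in Eomes-, whereas Klf3 is near 0 on both arrays of number 3.

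Other genes of the same programme were examined as a list of 25, chosen with earlier results of these data known. Of the 25, 21 were tested through their brightest probe set. None passed the adjusted test, 13 had the higher mean in Eomes+ and 8 in Eomes-, and the median was 0.30 log2, beside 47.4% higher and a median of -0.02 over 12571 genes. S1pr1, the sphingosine phosphate receptor of lymphocyte egress, had an unadjusted p under 0.05 (beside 1.19% of all genes in that direction). It read 9.74, 9.41 and 8.63 in Eomes+ and 7.97, 8.10 and 8.21 in Eomes-, with no overlap (1.17 log2, SE 0.33; limma unadjusted p = 0.0101). Klf2, which activates S1pr1, read 10.28, 10.48 and 10.67 against 9.22, 9.80 and 10.54 (0.62 log2, SE 0.34). The receptor gene Slamf6 had 1.01 log2 (SE 0.57), but its other tested probe sets, 2 in number, went the other way. Txk, a TEC family kinase, had 0.94 log2 (SE 0.53) and Il7r, the interleukin 7 receptor, -0.36 log2 (SE 0.53). Tcf7, the partner of Lef1, was not analysed here.

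Factors of the effector side mostly had the lower mean in Eomes+. Of 17 genes, all tested, 15 were lower and 2 higher, 1 of which was Eomes, and the median was -0.45 log2. Over all genes 52.6% were lower, with a median of -0.02. The list, chosen with earlier results of these data known, also held Tox, Nfatc1, Nr4a1, Nr4a2 and Nr4a3, factors of exhaustion or T cell receptor signalling. Of the 12 tested T cell identity genes 10 were lower too (median -0.14), 7 of them at each number. None of the 17 passed the adjusted test. In 11 of 17 the Eomes+ array was lower at each number, beside 17.3% of all genes, and for Irf4, Rbpj and Bhlhe40 the limma unadjusted p was under 0.05 (beside 1.94% of all genes in that direction). Irf4, a factor induced by the T cell receptor, read 8.46, 8.01 and 6.60 in Eomes+ and 9.91, 9.84 and 8.66 in Eomes- (-1.78 log2, SE 0.57; limma unadjusted p = 0.0177), with every Eomes+ array below every Eomes- array. Rbpj, the DNA-binding partner of Notch, had -0.71 log2 (SE 0.22; limma unadjusted p = 0.0151) and Bhlhe40, a factor of activated T cells, -0.69 log2 (SE 0.24; limma unadjusted p = 0.0268). Prdm1, which Bcl6 and Bach2 are known to repress, read 7.76, 7.78 and 7.22 against 8.59, 8.46 and 7.85 (-0.71 log2, SE 0.31; limma unadjusted p = 0.0578), also without overlap. Id2, the relative of Id3 in effector cells, had -0.68 log2 (SE 0.46).

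The lists of partners and relatives of the single factors had medians between -0.28 and 0.24 log2, beside -0.02 over all genes. Of 20 tested TCF/LEF partners 9 were higher and 11 lower (median -0.02 log2), with Dvl2, a Wnt signal transducer, at 0.96 (2 Eomes- arrays under the filter level), Axin1 at -0.47 and the TLE family genes Tle5 at -0.36 and Tle2 at -0.64. The other tested probe set of Dvl2 went the other way. Of 19 tested FOXO family genes and targets 9 were higher and 10 lower (median -0.01). The list's largest differences were those of S1pr1 (1.17) and Klf2 (0.62), given above, and it also held Ddit4, a stress-induced inhibitor of mTOR signalling, at -0.44 (SE 0.15; limma unadjusted p = 0.0240), Cdkn1b at -0.47 and Foxo3 at -0.03. Of 12 tested Kruppel-like factors other than Klf3 7 were higher and 5 lower (median 0.11), with Klf9 at 0.46, Klf6 at -0.20 and Klf11 at -0.64. All of the 5 other tested probe sets of Klf9 went the other way. In these lists none passed the adjusted test.

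The 5 smaller lists held no gene at a limma unadjusted p under 0.05. Of 5 tested E and ID protein genes 2 were higher and 3 lower (median -0.28), with the E proteins Tcf12 at 0.28, Tcf3 at -0.28 and Tcf4 at -0.39. Of 8 tested BACH and small MAF genes 5 were higher (median 0.24), with Bach1 at 0.65 (SE 0.36), Maff at 0.46, Nfe2l2 at 0.41 and the BACH1 target Hmox1 at 0.59 (SE 1.02). Bach1 had an opposite direction in its other tested probe set. Of 11 tested BCL6 corepressors and relatives 5 were higher and 6 lower (median -0.02), with Rcor1 at 0.42, Bcor at -0.02, Hdac5 at -0.28 and Zbtb32 at -0.63. Of 7 tested MYB relatives and coactivators 1 was higher and 6 lower (median -0.08), with Mybl1 at -0.05, Crebbp at -0.08, Kmt2a at -0.34 and Mybl2 at -0.56. For Kmt2a and Mybl2 the other tested probe set went the other way. Of 7 tested chromatin organisers related to Satb1 likewise 1 was higher and 6 lower (median -0.03), with Smarca5 at -0.22 and Hdac1 at -0.25.

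**Figure D5:**
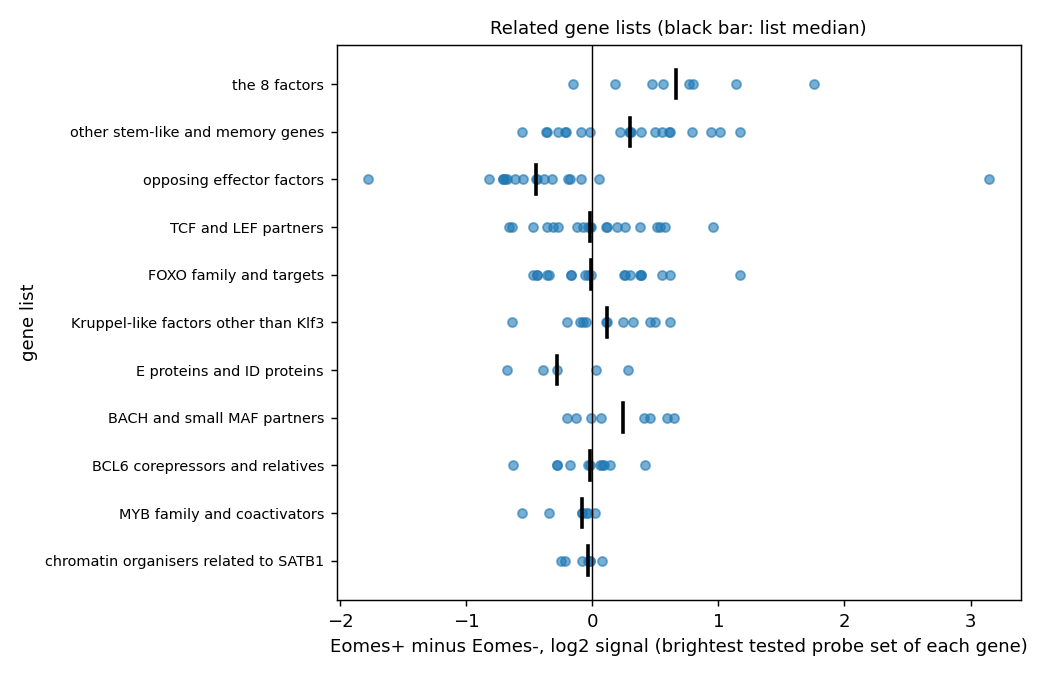
Eomes+ minus Eomes- log2 signal (horizontal axis) of the brightest tested probe set of each gene in the 8 factors and 10 related lists, with 1 point a gene and a black bar for the list's median. The median is 0.67 for the 8 factors, 0.30 for other stem-like and memory genes and -0.45 for the effector factors, in which the far right point is Eomes, and it lies between -0.28 and 0.24 for the other 8 lists.

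The genes whose 6 array values ran most nearly parallel to each factor are given as a description, from 9988 probe sets whose SD over the arrays was at least 0.5. For Lef1 they were Kbtbd11 (Pearson r = 0.995), Nsg2 (0.992) and Rras2 (0.990). For Satb1 they were Foxo1 (0.993), Pus3 and Gimap6 (0.991 each), for Foxo1 a pair of Satb1 probe sets (0.995 and 0.993) and Pus3 (0.994), and for Myb Nod1 and Foxo1 (0.990 each) and Rtn4rl1 (0.988). Satb1, Foxo1 and Myb thus shared 1 pattern, high on Eomes+ arrays 1 and 2 and low on number 3. For Klf3 the nearest were Tm4sf1 (0.994), Ifi204 (0.992) and Cnn3 (0.991), and for Id3 Rbpms (0.997), Fes (0.993) and Pcdh18 (0.991). For Bach2 they were Ppp2r5e (0.999), Sult6b1 (0.998) and Cd160 (0.995), and for Bcl6 Trp53bp1 (0.981), Pnpla8 (0.972) and Ago3 (0.971). The 6 points of each correlation share the arrays and their differing content of T cell and tumour RNA.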

How the data were processed

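The authors deposited 1 table of log2 signals, between 1.68 and 14.95, for 45101 probe sets on 6 arrays. The submitters' processing notes list Transcriptome Analysis Console and MAS5 with neither role nor version. How probes were summarised is therefore not given in these sources, and the log2 scale was read from the values. Control probe sets (64) were removed. A single gene symbol was annotated for 34945 probe sets, several for 932 and none for 9160. A RefSeq table (GRCm38.p6) held the gene identifier of 34741 of the 34945. Probe sets with several genes were not named.

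Testing was restricted to probe sets that exceeded the 40th percentile of the array on 3 or more of 6 arrays. It used lmFit and eBayes of limma 3.58.1 (R 4.3.3), with an intensity trend, two-sided p-values and Benjamini-Hochberg adjustment over all 27766, at a threshold of 0.05. The fit was tested on simulated data. Groups came from the sample titles. Each gene of a list was represented by its brightest tested probe set. The members and lists were chosen with earlier results of these data known. Named list genes were up to 4 of smallest p in each list, plus preset genes, and the parallel genes were the 3 of highest correlation. The alternatives were a replicate block, other filters, normalizations, pseudocounts, variance models, array weights, covariates and arrays left out.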

Additional observations from a re-analysis of the deposited data

How the results depend on the processing

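The median difference of the 24 probe sets stayed between 0.532 and 0.996 log2 over all alternatives (0.757 as reported). Their count at a limma unadjusted p under 0.05 was 14 (13 higher in Eomes+) with array weights, where 22.6% of all probe sets had such a p, 14 with a covariate for RNA of other cells (8.67% of all), 13 with the T cell identity mean as covariate (8.61%), 7 with arrays centred on it (0.764%), and 1 of 8 genes with the brightest or the averaged probe sets. It ran from 1 to 15 with arrays left out, with or without a block for the number. It was 1 without number 1 and no block (2.36% of all) and 15 without number 3 with the block kept (10.1%). The counts with array weights or a covariate hold Klf3 1454666_at and 1441200_at, which passed the filter through their Eomes+ arrays. Over all probe sets 74 passed the adjusted test with array weights and 9 with the T cell covariate, among them Lef1 1454734_at (2.00 log2, limma adjusted p = 0.0369), the 1 factor probe set that passed; with arrays left out the number ran from 0 to 1. The T cell covariate and centring, and the filter on both groups, were added after seeing the data.

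Array numbers were no block in the reported fit, since the deviations from the group means correlated within a number at 0.665, 0.0949 and 0.691, which misses the rule for number 2, whose Eomes- array was closer to Eomes+ array 1 (0.372). With a replicate block in limma 14 of the 24 had an unadjusted p under 0.05 and the higher mean in Eomes+ (3.88% of all). The 14 include Klf3 1454666_at and 1441200_at, which passed the filter through their Eomes+ arrays. In either direction 2748 of all probe sets (9.9%) had such a p, beside 3.37% in the reported fit. With the block 0 of all probe sets passed the adjusted test, and the adjusted p was 0.0769 and 0.111 for Lef1.

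Of 626 single values 591 kept their direction and side of the threshold. Signs turned with array weights for Bach2 1436515_at (-0.092) and Foxo1 1416981_at (-0.045), for Klf3 1429360_at with other cells (-0.105) or T cell genes (-0.125) as covariate, and with T cell centring for Bcl6 1450381_a_at (0.041) and Foxo1 1456529_at (0.121). With arrays left out the ranges were -0.296 to 0.685, -0.554 to 0.924 and -0.222 to 0.687 for Bach2 1445460_at, 1436515_at and 1437667_a_at. They were -0.406 to 0.222 and -0.102 to 0.319 for Bcl6 1450381_a_at and 1421818_at, -0.206 to 0.094 for Foxo1 1456529_at and -0.267 to 0.394 for Klf3 1429360_at. Over all alternatives the brightest probe set ran from 1.23 to 2.18 for Lef1, 0.57 to 1.83 for Satb1, 0.43 to 1.35 for Myb, 0.30 to 0.97 for Foxo1, 0.28 to 1.44 for Klf3, 0.06 to 1.03 for Id3, -0.30 to 0.69 for Bach2 and -0.65 to 0.22 for Bcl6. Left-out arrays moved those of Satb1, Myb, Foxo1, Klf3 and Id3 by over 1.5 times. Without Eomes+ array 3, Myb was at 1.346, Foxo1 at 0.966 and Id3 at 0.064, without Eomes- array 1 Klf3 was at 0.277 and Id3 at 0.076, and without Eomes- array 3 Klf3 was at 1.443, Id3 at 1.028 and Satb1 at 0.570. Differences near the filter level were sensitive to a pseudocount. With 64 added, Klf3 1454666_at went from 1.433 to 0.695 and 1441200_at from 0.903 to 0.433. The brighter Lef1 1454734_at went from 1.762 to 1.631. Having 3 arrays a group also limits what could be called.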
